A study of Arabidopsis thaliana with 6 samples.

Results

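*XTH22* (also called *TCH4*), *TCH2*, *TCH3*, *EXO*, *EXL2* and *EXL4* are 6 Arabidopsis genes that were taken by locus identifier, with no threshold on their expression but with earlier results of these data known, out of the 33314 genes in the deposited tables. They comprise touch genes, whose transcripts are known to accumulate within minutes of mechanical stimulation, and genes of the EXORDIUM family. Their transcripts were quantified in tables read here as Nanopore direct RNA sequencing, which reads polyadenylated RNA molecules without copying them to cDNA, in whole seedlings harvested at 14 days on MS medium in long days. All plants had the Col-0 ecotype, and the 3 genotypes were *fio1-1*, *fio1-5* and the wild type, Col-0. *FIO1* encodes a METTL16-like methyltransferase that deposits N6-methyladenosine (m6A) on RNA, *fio1-1* is a chemically induced allele that lacks a short run of amino acids, and *fio1-5* is a single CRISPR/Cas9 allele with a small deletion. Each genotype had 1 library of total RNA from pooled seedlings, so no difference below has a replicate check, no test was possible, and every interval covers counting error only.

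The touch genes code for proteins of different kinds. XTH22 is a xyloglucan endotransglucosylase/hydrolase, an enzyme that cuts and rejoins xyloglucan chains in the cell wall, and TCH2 (CML24) and TCH3 (CML12) are calmodulin-like proteins that bind calcium. EXO is an extracellular protein that promotes cell expansion and whose gene is induced by brassinosteroid, a growth hormone that also induces *XTH22*, while EXL2 and EXL4 are related proteins of the same family. The touch response is also known to include many transcription factors of wounding and defence, and calmodulin-binding CAMTA factors are known to act on part of it through the element CGCGTT.

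Stretches of these transcripts that hold an m6A-type 5-mer are shown first, because FIO1 acts on m6A, followed by the part of a member promoter that holds a CAMTA-type element. The 5-mers searched, on the transcript strand only, were GGACA or AGACT or GGACT or GGACC. They are the general m6A elements that the paper lists for Col-0, so a match does not mark a site of FIO1. Capitals mark a single 5-mer on each line, and the coding line of *EXO* holds a further match, GGACA, in lower case. All sequences run 5′ to 3′, and all were read from the TAIR10.1 reference, since the tables name no build. The first line of each gene of the EXORDIUM family is in the coding part, and the second line of *EXO* and of *EXL4* is in the 3′ untranslated region (3′ UTR).
*EXO*, coding, chr4:5740865-5740893 (+): tgagtcgttgcgGGACTcacggacacgct
*EXL2*, coding, chr5:25704437-25704465 (+): tgagccggtgcgGGACTcacggatcctcc
*EXL4*, coding, chr5:2938821-2938849 (+): tgaaccgatgcgGGACTcacgggtcaaag
*EXO*, 3′ UTR, chr4:5741473-5741501 (+): atcttgtcgcttGGACTataatttaacgg
*EXL4*, 3′ UTR, chr5:2939664-2939692 (+): aaggcgatgttgGGACTtgggggataaga
*XTH22*, coding, chr5:23307431-23307459 (-): cctcgaaacaggGGACTactactggctcg
*XTH22*, coding, chr5:23308114-23308142 (-): ggtgatggtcgtGGACAgatcaagaacaa
*TCH3*, coding, chr2:17138735-17138763 (+): agctgatcttcaGGACAtgatgaacgaag

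The 3 coding sites of *EXO*, *EXL2* and *EXL4* lie in a run of 14 identical bases. In the 3′ UTR only *EXO* and *EXL4* held any of these 5-mers, with 1 each, against 0 in *XTH22*, *TCH2*, *TCH3* and *EXL2*, and 40.6% of the 23581 genes with an annotated 3′ UTR held at least 1. The 5′ UTR held 1 in *XTH22*, *TCH3* and *EXL2* and 0 in *TCH2*, *EXO* and *EXL4*, and 28.4% of 23360 genes held at least 1 there. In the coding part *EXL2*, *EXL4* and *TCH3* held 4, *EXO* 3 and *XTH22* 2, whereas *TCH2* held 0. Of all coding parts, 87.8% held at least 1, at 3.30 per kilobase. A match of letters is not a methylated site, and methylation itself was not measured in the tables analysed here.

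The promoter window, from 250 bases before to 50 bases after the annotated start, was searched on both strands. *TCH2* was the only member with CGCGTT, which 3.50% of 27444 promoters held. Of 17 listed genes known for rapid induction by touch or wounding, 0 held it, against 3 of 33 *XTH* genes and 2 of 7 root markers. In *TCH2* the element overlaps its own reverse complement, and the stretch, which begins within 100 bases of the start, had 4 matches. None of the 6 windows held CGTGTG or CGTGCG, bound by brassinosteroid-responsive factors and present in 6.52% and 1.98% of promoters, or CACGTG, the G-box, present in 7.67%. The part of the *TCH2* promoter that holds the matches is shown with the matched bases in capitals.
*TCH2*, promoter, chr5:14999676-14999704 (-): cAACGCGTTttaattaaaaaAACGCGTTa

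The libraries held between 4351543 and 4682799 counts, after the isoform estimates were summed per gene. The 16426 genes with at least 20 counts over the 3 libraries were compared, and all 6 members were among them. All levels below in counts per 1000000 (CPM) were scaled with TMM factors, which correct for differences in composition between libraries. Log2 ratios were computed from these scaled counts with 0.5 counts added, and each is followed by its exact 95% binomial interval. The transcript of *FIO1* differed from Col-0 by -0.42 in *fio1-1* and 0.28 in *fio1-5* on the log2 scale, given here without intervals. These values do not check the labels, since both alleles are small changes. The paper describes *fio1-1* as a splice site mutation and the *fio1-5* deletion as lying close to a splice site. Shoot markers (*RBCS1A*, *RCA* and *CAB3*, which act in photosynthesis) and root markers were detected in every library. The exception was the nitrate transporter gene *NRT2.1*, a root marker with 3, 1 and 0 counts in *fio1-1*, *fio1-5* and Col-0.

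*XTH22* and *TCH3* were about 4-fold lower in *fio1-5* than in Col-0, while in *fio1-1* both lay within counting error of Col-0. *XTH22* had 702 counts in Col-0, 587 in *fio1-1* and 166 in *fio1-5*, or 149, 136 and 35.8 CPM. The *fio1-5* library alone was low, and its counting interval (142 to 193) did not overlap that of Col-0 (651 to 756) or *fio1-1* (540 to 636). The log2 ratio to Col-0 was -2.06 (-2.31 to -1.82) in *fio1-5*, a level 4.18-fold lower, and -0.13 (-0.29 to 0.03) in *fio1-1*. Of the 16426 genes, 94 (0.572%) had a ratio as low as this or lower in *fio1-5*. Between the mutants *XTH22* differed by -1.93 (-2.19 to -1.68), lower in *fio1-5*.

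*TCH3* was the least abundant member, with 60 counts in Col-0, 63 in *fio1-1* and 13 in *fio1-5*, or 12.8, 14.6 and 2.80 CPM. Again only the *fio1-5* library was low. Its log2 ratio to Col-0 was -2.14 (-3.18 to -1.31), a level 4.56-fold lower, which 83 of all genes (0.505%) reached or passed, against 0.20 (-0.34 to 0.73) in *fio1-1*. The interval in *fio1-5* is wide because it rests on 13 counts. Among the 6 genes, *XTH22* and *TCH3* were at least 4-fold lower in *fio1-5*, where 0.621% of all genes were.

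*TCH2* showed a smaller difference in the same library. It had 151 counts in Col-0, 158 in *fio1-1* and 106 in *fio1-5*, or 32.1, 36.7 and 22.8 CPM. The log2 ratio to Col-0 was -0.49 (-0.86 to -0.12) in *fio1-5* and 0.19 (-0.14 to 0.52) in *fio1-1*, so that *fio1-1* could not be told from Col-0 at this depth. Between the mutants the log2 ratio was -0.68 (-1.05 to -0.32).

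*EXO* was the only member that was lower in both mutants with an interval below 0. It had 72.4 CPM in Col-0, 55.3 in *fio1-1* and 32.3 in *fio1-5*, and the 3 counting intervals did not overlap. The log2 ratio to Col-0 was -0.39 (-0.63 to -0.14) in *fio1-1* and -1.16 (-1.45 to -0.88) in *fio1-5*. In *fio1-5*, 513 of all genes (3.12%) were as low as *EXO* or lower, and in *fio1-1* 3663 (22.3%) were. The share of all genes with both intervals below 0 was not counted. The mutants differed by -0.77 (-1.08 to -0.47).

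*EXL2* was the most abundant member and the most precisely counted one. It had 3009 counts in Col-0, 3073 in *fio1-1* and 2098 in *fio1-5*, or 640, 714 and 452 CPM. The log2 ratio was -0.50 (-0.58 to -0.42) in *fio1-5* and 0.16 (0.085 to 0.23) in *fio1-1*. On the deposited TPM scale (transcripts per 1000000, which corrects for length) the log2 ratio in *fio1-1* was 0.014. The median of all genes on that scale was -0.14 in *fio1-1* and -0.15 in *fio1-5*, against -0.01 and 0.00 for scaled counts. Ratios to Col-0 thus read lower in TPM for genes in general, and in *fio1-1* *EXL2* lay above the median on both scales.

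*EXL4* was the exception among the 6 genes, being higher in both mutants than in Col-0. It had 591 counts in Col-0, 1216 in *fio1-1* and 741 in *fio1-5*, or 126, 283 and 160 CPM. The *fio1-1* library was the high one, with a log2 ratio of 1.17 (1.03 to 1.31) or a level 2.25-fold higher, and *fio1-5* lay between, at 0.34 (0.19 to 0.50). As with the other members, *EXL4* was lower in *fio1-5* than in *fio1-1*, by -0.82 (-0.96 to -0.69). Markers of root tissue were higher in both mutants as well. All 6 root markers tested had a ratio above 0 in both mutants. Among all genes, ratios above and below 0 were about equally frequent in each mutant. In each mutant 3 of the 6 were at least 2-fold higher (2 in *fio1-1* and 1 in *fio1-5* on the TPM scale). Of all genes, 9.48% were at least 2-fold higher in *fio1-1* and 7.35% in *fio1-5*, on scaled counts. The summed level of the root markers was 1669 CPM in Col-0, 4512 in *fio1-1* and 2987 in *fio1-5*, mostly from *PYK10*. The order of the 3 libraries in that sum is that of *EXL4*, but it rests on *PYK10*: between the mutants 3 of the 6 markers were higher and 3 lower in *fio1-5*, with a median of -0.03. The 3 shoot markers summed to 9173 CPM in Col-0, 10059 in *fio1-1* and 12879 in *fio1-5*, with median log2 ratios to Col-0 of 0.13 and 0.48, and all 3 were higher in *fio1-5* than in either other library. The part of tissue makeup in the level of *EXL4* or of the members that were low in *fio1-5* was not tested. In bulk seedlings, more cells of a type and more RNA per cell cannot be told apart.

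**Figure D1:**
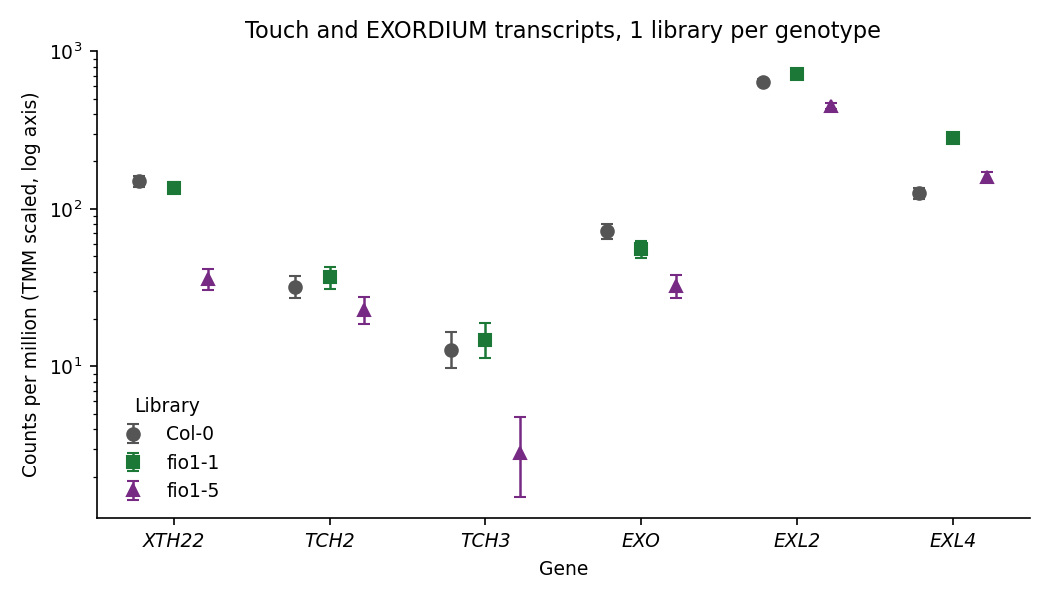
Level of each of the 6 transcripts in the Col-0 (circle), *fio1-1* (square) and *fio1-5* (triangle) library, in TMM-scaled CPM on a log axis, with bars for the exact Poisson 95% interval of the count (counting error only, 1 library per genotype). The *fio1-5* library is the lowest for every gene except *EXL4*, and *XTH22* (35.8 against 149 CPM in Col-0) and *TCH3* (2.80 against 12.8) are farthest below.

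Members at least 2-fold lower than Col-0 were more frequent than among all genes tested in *fio1-5* but not in *fio1-1*. The members were chosen with earlier results of these data known, so these shares are descriptive and not independent evidence of an excess. In *fio1-1* against Col-0, 1 member (*EXL4*) was at least 2-fold higher, where 9.48% of all genes were, and 0 were at least 2-fold lower, against 4.32%. In *fio1-5* against Col-0, 3 members (*XTH22*, *TCH3* and *EXO*) were at least 2-fold lower, against 4.34% of all genes, and 0 higher, against 7.35%. In *fio1-5* against *fio1-1*, 2 members (*XTH22* and *TCH3*) were at least 2-fold lower, against 4.97%, and 0 higher, against 3.24%. The median log2 ratio of the 6 genes was 0.17, -0.83 and -0.80 in these comparisons, beside medians over all genes of -0.01, 0.00 and 0.00. All 6 were lower in *fio1-5* than in *fio1-1*, while 49.9% of all genes were. The comparisons with Col-0 share a library, and the comparison between mutants shares its libraries with both.

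**Figure D2:**
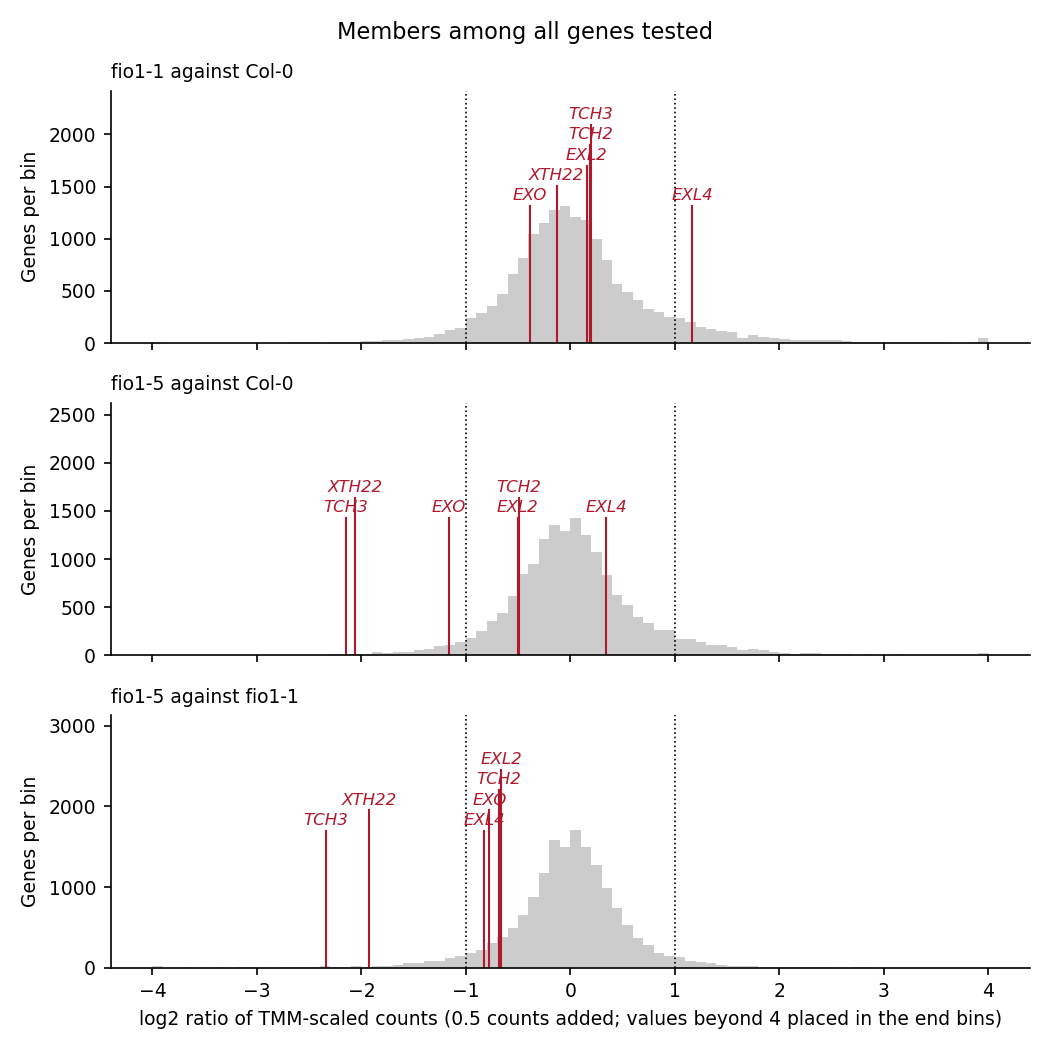
Distribution of log2 ratios over the 16426 genes tested (grey, genes per bin of the log2 ratio) in each of the 3 comparisons, with the 6 members as labelled red lines and the 2-fold limits dotted. In *fio1-1* all members except *EXL4* lie in the centre of the distribution, whereas in *fio1-5* *XTH22*, *TCH3* and *EXO* lie in its lower tail.

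Levels were compared between genes on the TPM scale, which accounts for transcript length. In Col-0 the order was *EXL2* (310 TPM), *XTH22* (77.8), *EXL4* (68.8), *EXO* (45.0), *TCH2* (33.6) and *TCH3* (8.24). Counting intervals of *XTH22* (72.1 to 83.7) and *EXL4* (63.4 to 74.6) overlapped there, and no other neighbours in the order did. In *fio1-1* the order was *EXL2* (313), *EXL4* (140), *XTH22* (64.3), *TCH2* (35.0), *EXO* (31.1) and *TCH3* (8.67), with overlap between *TCH2* and *EXO*. In *fio1-5* it was *EXL2* (196), *EXL4* (78.4), *TCH2* (21.5), *EXO* (18.0), *XTH22* (16.7) and *TCH3* (1.52), and the intervals of *TCH2*, *EXO* and *XTH22* overlapped. *XTH22* thus held the second place in Col-0 and the fifth in *fio1-5*.

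The TAIR10.1 annotation places *XTH22* (AT5G57560) at chr5:23307006-23308680 on the minus strand, with 2 exons and a protein of 284 residues. *EXO* (AT4G08950; chr4:5740219-5741591), *EXL2* (AT5G64260; chr5:25703649-25705339) and *EXL4* (AT5G09440; chr5:2938193-2939715) lie on the plus strand, each as 1 exon, and encode 314, 305 and 278 residues. *TCH2* (AT5G37770; chr5:14997514-14999619, minus strand) has 2 annotated isoforms for the same 161 residues. Its single-exon isoform held at least 98.4% of the counts in every library. *TCH3* (AT2G41100; chr2:17137037-17139700, plus strand) has 7 annotated isoforms, of which isoform 2, encoding 199 residues, was the most counted.

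No switch of isoform was detectable beside the low level of *TCH3* in *fio1-5*. Isoform 2 held 68.3% of its counts in Col-0 (95% Clopper-Pearson interval 55.0 to 79.7%), while the share was 71.4% for *fio1-1* (58.7 to 82.1%), and for *fio1-5* it was 69.2% (38.6 to 90.9%). Isoform 7 had 9 counts in Col-0, 6 in *fio1-1* and 0 in *fio1-5*. The 13 counts of *fio1-5* allow a share of isoform 7 of up to 24.7%, so its loss could not be shown at this depth. Isoforms 4, 5 and 6 had 0 counts in all libraries.

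The genes next to *XTH22* and *TCH3* had other patterns. *XTH25*, another endotransglucosylase gene 565 bases from *XTH22*, had 111 counts in Col-0, 48 in *fio1-1* and 57 in *fio1-5*, so it was low in both mutants, with log2 ratios of -1.07 (-1.60 to -0.58) and -0.94 (-1.43 to -0.47). *CAM2*, a calmodulin gene 482 bases from *TCH3*, had 180, 235 and 218 counts in the same order and was not low in *fio1-5*. On its other side AT2G41090, a calmodulin-like gene 37 bases away that was named only for its position, had 541, 346 and 445. Genes annotated on the opposite strand over *TCH2* and *TCH3* had 0 counts in every library. How reads were assigned to near-identical sequences is not given in the sources used here, but 4.01% of the 21-base words of *TCH3* recurred in another gene, 1.53% of those of *XTH22*, and under 0.5% of those of the others.

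The rest of the EXORDIUM family was examined next. Of its 8 genes 7 were tested, and *EXL6* had 0 counts throughout. In *fio1-5*, 2 of the 7 (*EXO* and *EXL1*) were at least 2-fold lower and 0 higher, against 4.34% and 7.35% of all genes, with a median log2 ratio of -0.50. In *fio1-1*, 0 were at least 2-fold lower and 1 higher (*EXL4*), against 4.32% and 9.48%, with a median of -0.25. *EXL1*, known for a role in the response to low carbon and energy, had 40 counts in Col-0, 64 in *fio1-1* and 11 in *fio1-5*, so that *fio1-5* was again the low library, with log2 ratios of 0.80 (0.21 to 1.41) and -1.80 (-2.96 to -0.85). *EXL5* was low in both, with 375, 225 and 218 counts and log2 ratios of -0.61 (-0.85 to -0.37) and -0.76 (-1.01 to -0.52). *EXL3* also lay below Col-0 in both mutants, at -0.25 (-0.46 to -0.05) and -0.45 (-0.66 to -0.24).

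The XTH family, which remodels cell wall xyloglucan, was examined in the same way. Of the 25 tested members besides *XTH22*, 6 were at least 2-fold higher in *fio1-5* and 1 lower, against 7.35% and 4.34% of all genes. In *fio1-1*, 5 were at least 2-fold higher and 1 lower, against 9.48% and 4.32%, so that the lower ones were no more frequent than among all genes. The median log2 ratios of these 25 were 0.15 in *fio1-5* and 0.29 in *fio1-1*. *XTH23*, the single one below in *fio1-5*, had 59 counts in Col-0, 70 in *fio1-1* and 28 in *fio1-5*, with a log2 ratio of -1.04 (-1.76 to -0.38) in *fio1-5* and 0.37 (-0.15 to 0.90) in *fio1-1*. *XTH12*, *XTH13*, *XTH14* and *XTH31* were at least 2-fold higher in both mutants. For *XTH14* the counts were 180 in Col-0, 460 in *fio1-1* and 447 in *fio1-5*, and for *XTH12* they were 23, 85 and 84. *XTH17* passed 2-fold in *fio1-1* alone, at 1.13 (0.94 to 1.32), and *XTH15* and *XTH26* in *fio1-5* alone, at 1.04 (0.75 to 1.34) and 1.07. On the TPM scale *XTH15*, *XTH26* and *XTH17* fell below the 2-fold limit, as did *XTH31* in *fio1-1*. *XTH12*, *XTH13*, *XTH14*, *XTH17* and *XTH26* are known as root-expressed genes, and the root markers were higher in both mutants, with medians of 0.96 in *fio1-1* and 0.93 in *fio1-5*. These ranged from *EXPA7*, a root hair expansin gene, at 1.56 and 1.74, to the endodermal factor gene *MYB36*. The part of root tissue in the ratios of the XTH genes was not tested.

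**Figure D3:**
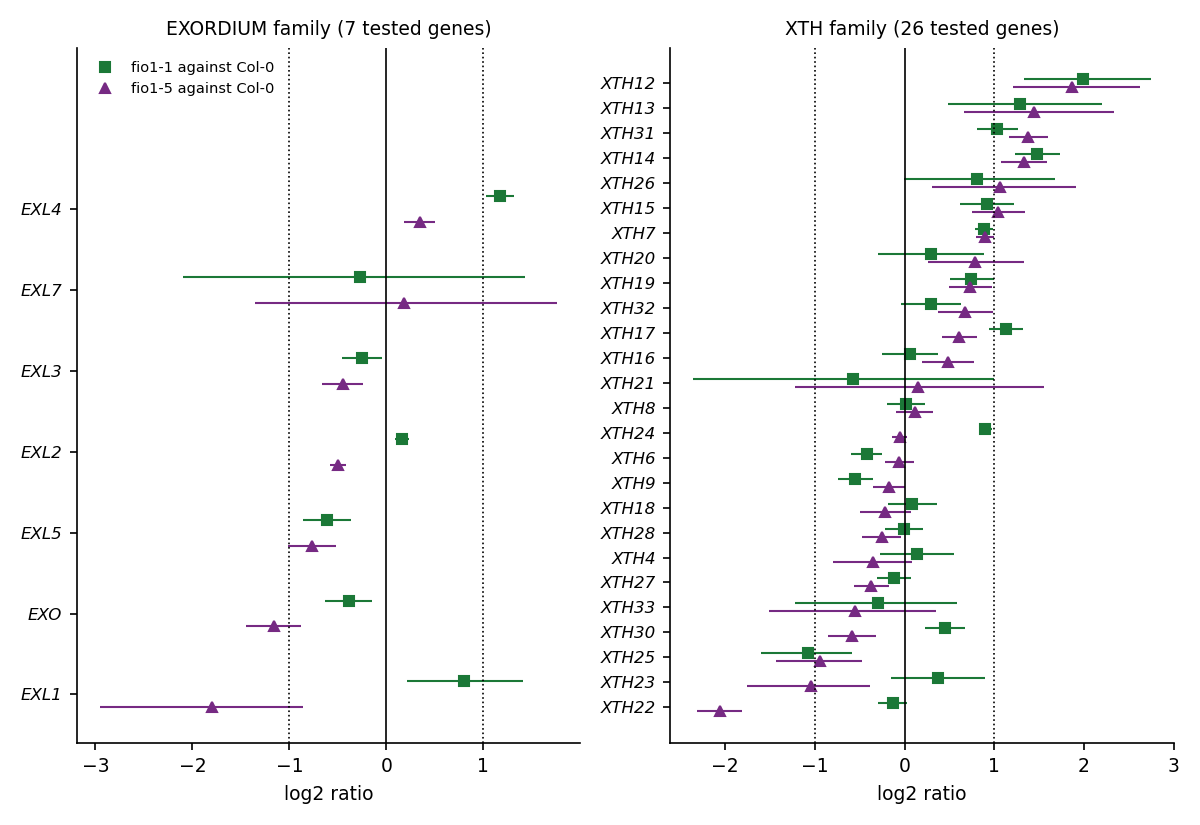
Log2 ratio to Col-0 of each tested gene of the EXORDIUM family (left, 7 genes) and the XTH family (right, 26 genes) in *fio1-1* (square) and *fio1-5* (triangle), with exact 95% binomial intervals (counting error only) and the 2-fold limits dotted. *EXO*, *EXL1*, *XTH22* and *XTH23* lie at least 2-fold below Col-0 in *fio1-5* alone, while *XTH12*, *XTH13*, *XTH14* and *XTH31* lie above in both mutants.

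Most calmodulin-type relatives of TCH2 and TCH3 stayed within 2-fold of Col-0. Of the 6 tested calmodulin genes, 0 passed 2-fold in either mutant, and their median log2 ratios were 0.20 in *fio1-1* and 0.08 in *fio1-5*. Among all genes, 9.48% were at least 2-fold higher and 4.32% lower in *fio1-1*, and 7.35% and 4.34% in *fio1-5*. With lists as short as those here, none past 2-fold is also what these shares would give. *CML23*, the closest relative of *TCH2*, had 76 counts in Col-0, 55 in *fio1-1* and 66 in *fio1-5*, and did not pass 2-fold. *CML38*, a calmodulin-like gene induced by wounding and low oxygen, was the 1 of 3 tested calmodulin-like genes that was at least 2-fold lower in *fio1-5*. It had 31 counts in Col-0, 44 in *fio1-1* and 8 in *fio1-5*, with log2 ratios of 0.62 (-0.06 to 1.34) and -1.87 (-3.27 to -0.78). Of 5 tested *CAMTA* genes, 0 passed 2-fold, with medians of -0.26 and -0.16.

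Genes known to be induced within minutes by touch or wounding were often low in *fio1-5*. The list was chosen with earlier results of these data known, so its counts beside all genes are descriptive and not independent evidence. Of the 15 tested, 8 were at least 2-fold lower in *fio1-5* than in Col-0, against 4.34% of all genes, and 0 higher, and the median log2 ratio was -1.25. In *fio1-1*, 1 was at least 2-fold lower and 2 higher, against 4.32% and 9.48%, with a median of 0.04. Between the mutants 10 were at least 2-fold lower in *fio1-5*, against 4.97% of all genes, and 0 higher, against 3.24%. *ZAT10*, a zinc finger repressor of stress responses, had 203 counts in Col-0, 191 in *fio1-1* and 53 in *fio1-5*. As for *XTH22*, the *fio1-5* library was low and the other libraries were alike, with log2 ratios of -1.91 (-2.38 to -1.48) and 0.04 (-0.25 to 0.33).

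The 3 tested ethylene response factor genes of the list were low in the same library. *ERF6* had 66 counts in Col-0, 55 in *fio1-1* and 10 in *fio1-5*, and a log2 ratio of -2.64 (-3.83 to -1.74) in *fio1-5*. *ERF104* was at -1.44 (-1.85 to -1.05) and *ERF5* at -1.31 (-2.07 to -0.62). The WRKY factor genes *WRKY40* and *WRKY33*, which act in defence, were at -1.67 (-2.43 to -1.0) and -1.25 (-1.61 to -0.90) in *fio1-5*, and *BAP1*, an inhibitor of cell death, had 17, 14 and 2 counts and a ratio of -2.78 (-6.23 to -0.99). *CAF1A*, which encodes a deadenylase that shortens poly(A) tails, was the only one of the 15 that was at least 2-fold lower in both mutants, at -1.20 (-1.61 to -0.81) in *fio1-1* and -2.59 (-3.22 to -2.05) in *fio1-5*. *WRKY53* and *PUB23*, which encodes a ubiquitin ligase, were at least 2-fold higher in *fio1-1*, at 1.15 (0.10 to 2.38) and 1.01 (0.44 to 1.61), and both were under 2-fold on the TPM scale. Handling and harvest of the seedlings, which are known to induce these genes, were not recorded per library in the labels and cannot be told apart from genotype here.

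**Figure D4:**
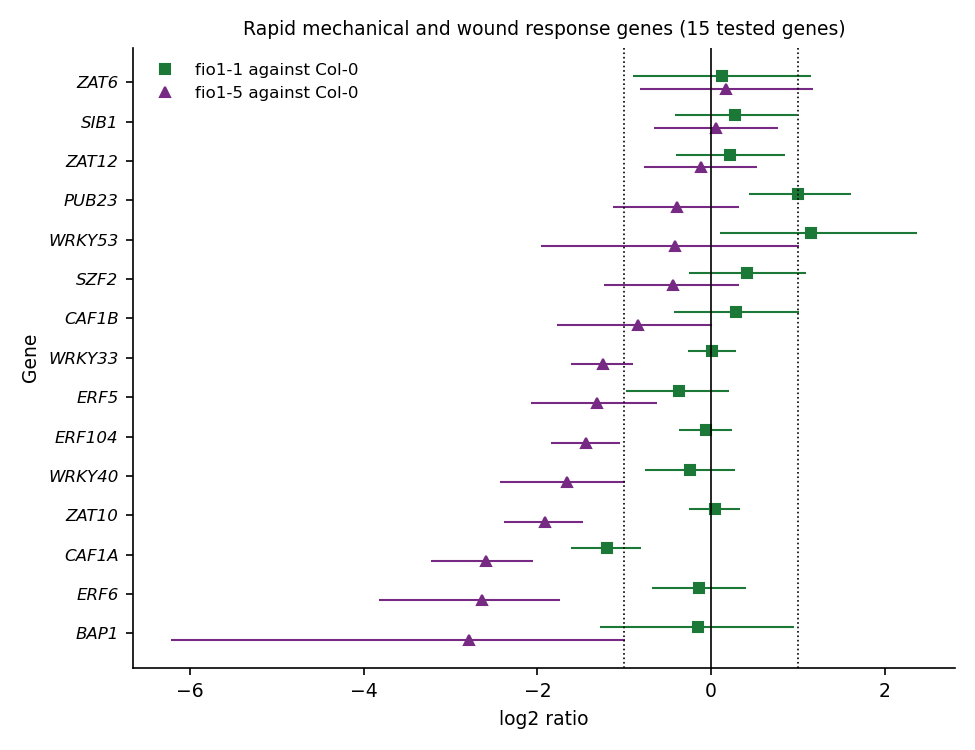
Log2 ratio to Col-0 of the 15 tested genes known for rapid induction by touch or wounding, in *fio1-1* (square) and *fio1-5* (triangle), with exact 95% binomial intervals (counting error only) and the 2-fold limits dotted. In *fio1-5*, 8 genes from *WRKY33* to *BAP1* lie below the lower limit, of which only *CAF1A* does so in *fio1-1*. The list was chosen with earlier results of these data known.

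Brassinosteroid genes were included because the hormone induces *EXO* and *XTH22*. Of 6 tested synthesis genes, 2 were at least 2-fold higher in *fio1-1* and 1 (*ROT3*) in *fio1-5*, against 9.48% and 7.35% of all genes, with 0 lower in either and medians of 0.09 and -0.09. *BR6OX2*, which makes the active hormone, had 92 counts in Col-0, 171 in *fio1-1* and 145 in *fio1-5*, and was at 1.02 (0.65 to 1.40) in *fio1-1*, but under 2-fold on the TPM scale. *ROT3* had 1, 14 and 7 counts, and with 1 count in Col-0 its ratios were 3.38 (1.22 to 9.34) and 2.33 (-0.13 to 8.32). *CPD*, a synthesis gene repressed by the hormone, was at 0.07 (-0.10 to 0.24) and -0.46 (-0.65 to -0.28). Of 6 tested signalling and turnover genes, 0 passed 2-fold in *fio1-1*, with a median of -0.03. In *fio1-5* all 6 had a ratio below 0, with a median of -0.21, whereas about as many of all genes lay above 0 as below. Of these 6, 1 was at least 2-fold lower, against 4.34% of all genes. That gene, *BAS1*, which encodes an enzyme that inactivates the hormone, had 101, 69 and 48 counts and a log2 ratio of -1.05 (-1.58 to -0.55). The genes *KCS1*, *EXPA5*, *DELTA-TIP* and *AGP4*, known to respond to the level of EXO, all stayed within 2-fold in both mutants, with medians of 0.29 and 0.20.

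For each member, the gene with the most similar pair of ratios to Col-0 was sought among the 10718 genes with at least 100 counts, by the distance between pairs over the 2 mutants. The nearest gene to *XTH22* was *PUB19*, a ubiquitin ligase gene with 79 counts in Col-0, 61 in *fio1-1* and 20 in *fio1-5* (distance 0.17 on the log2 scale). The nearest to *TCH3* was *ASN1*, an asparagine synthetase gene induced in darkness and sugar starvation, with 161, 162 and 34 counts (0.09). *ATL2*, which encodes a RING-type protein, was nearest to *EXO*, with 156, 107 and 68 counts (0.03). Nearest to *TCH2*, *EXL2* and *EXL4* were AT5G16450, *ZIM* and AT4G16670, each within 0.03. Many genes lie close to a pair of small ratios such as those of *TCH2* and *EXL2*, so that a short distance says little there. For *TCH3* the counting interval in *fio1-5* (-3.18 to -1.31) is far wider than its distance to *ASN1*. Counting error alone could therefore change which gene is nearest to *TCH3*.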

How the data were processed

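Base calling of the Nanopore reads by the authors used Guppy, reads of low quality or length were discarded (Nanofilt), and the rest were corrected (Fclmr2) and mapped (minimap2 2.17-r941, SAMtools 1.10). For every isoform and genotype, estimated counts and TPM were deposited. The deposited estimated counts are not normalized, and 39.3 to 41.8% of the isoform values are not whole. The deposited TPM values are scaled to length and to the library total. The tool that assigned reads to isoforms, its annotation, build and use of strand are not given in the sources used here. Correlation coefficients between the libraries, also deposited, were not used. No platform is named in the columns, although Illumina and Nanopore samples of each genotype are labelled. They were read as Nanopore because the paper names the series as its Nanopore data, which the tables themselves do not show. The column with the working name *fio1-2* was taken as *fio1-5*, as the labels state.

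Counts of the isoforms of a gene were added up and rounded, giving totals of 4351543 (*fio1-1*), 4682799 (*fio1-5*) and 4602836 (Col-0), of which 3 counts correspond to 0.697, 0.647 and 0.638 CPM. The 503 isoforms without an annotated gene were each kept as a gene. TMM factors (0.989, 0.991 and 1.02) were computed in edgeR 4.0.16 (R 4.3.3), and size factors for an alternative in DESeq2 1.42.0. No model was fitted, since each genotype had 1 library. Counts have exact Poisson intervals, ratios conditional binomial (Clopper-Pearson) intervals of the scaled counts without an added count, and isoform shares Clopper-Pearson intervals, all at 95% and for counting error only. The ratios were tested on simulated data. Other steps used scipy 1.17.1, numpy 2.4.6, matplotlib 3.10.9 and pandas 2.3.3 under Python 3.11.15. The genes named were the 6 members, listed genes past 2-fold in either mutant, listed neighbours and closest relatives, and for each member the gene nearest in ratios. Other listed genes, AT2G41090 and *FIO1* were named after their values were seen. The members and the 11 lists were chosen with earlier results of these data known. Alternatives included 2 counts added, scaling by totals or by DESeq2 size factors, and deposited TPM (plus 0.5 TPM). Others were the most counted isoform (members only), no count minimum, a minimum of 100 counts and a 4-fold limit. Alternatives for single listed genes were added after the data were seen.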

Additional observations from a re-analysis of the deposited data

Results flagged for a closer look

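For 3 members the ratio to Col-0 had opposite signs in the mutants. Among all genes, ratios above and below 0 were about equally frequent in each mutant. The share of all genes with opposite signs was not counted, so these 3 are not shown to be unusual. *TCH2* was at -0.49 in *fio1-5* and 0.19 in *fio1-1*, *TCH3* at -2.14 and 0.20, and *EXL2* at -0.50 and 0.16 on the log2 scale. With 1 library per genotype the difference between the mutants' effects was not tested, and for *TCH2* and *TCH3* the counting interval in *fio1-1* included 0.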

How the results depend on the processing

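No paired analysis was possible because each genotype had 1 library and the columns carry no replicate number, and for the same reason no replicate could be left out. An alternative for the members used only the most counted isoform. *XTH22*, *EXO*, *EXL2* and *EXL4* have 1 isoform each, so for them it repeats the reported value by construction. Of 90 alternative values of the members' ratios, these included, 0 changed sign and 86 stayed within the counting interval. The other 4 came from the deposited TPM, in which the median of all genes was -0.14 in *fio1-1* and -0.15 in *fio1-5*: *EXL2* was at 0.014 and -0.66 and *EXL4* at 1.02 and 0.19 in *fio1-1* and *fio1-5* against Col-0. All 130 alternative list medians stayed within the 95% rank interval of the reported median, which is the full range for short lists. The number of genes past the limit moved with the count minimum and the limit. Without a minimum, with at least 100 counts and with a 4-fold limit it was 3624, 618 and 365 higher and 2479, 164 and 96 lower in *fio1-1*, 3251, 405 and 206 higher and 2383, 205 and 102 lower in *fio1-5*, and 2392, 62 and 77 higher and 2548, 288 and 163 lower in *fio1-5* against *fio1-1*. With TPM, 953, 636 and 236 genes were higher in these comparisons. *TCH3*, with 13 counts in *fio1-5*, is the member whose ratio depth limits most.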
